A study of Homo sapiens with 6 samples.

Results

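The unfolded protein and amino acid stress genes are 33 genes of the integrated stress response, of the unfolded protein response and of amino acid uptake, read by symbol from a table of RNA-seq read counts for 29744 genes in MDA-MB-231, a cell line from a triple-negative human breast tumour. The genes were chosen by name and comprise 4 stress sensors and transducers, 8 genes of the ATF4 branch, 12 genes of protein folding and degradation in the endoplasmic reticulum (ER) that are targets of ATF6 or XBP1, and 9 amino acid transporters. All 33 passed the filter on low counts that left 14192 genes for testing. There were 3 groups of 2 libraries: PARP1 knockout (KO) cells carrying a short hairpin RNA (shRNA) against EZH2 (the shEZH2 line), PARP1 KO cells carrying an shRNA against SUZ12 (the shSUZ12 line), and cells with PARP1 intact that carried a nontargeting shRNA (control). Both shRNAs target Polycomb repressive complex 2 (PRC2), the methyltransferase of histone H3 lysine 27: EZH2 is its catalytic part and SUZ12 a core scaffold. All were grown for 2 days before RNA was taken. The labels do not say whether the knockout cells were a single clone, and no group lacked PARP1, EZH2 or SUZ12 alone, so the parts of the knockout and the shRNA in a difference cannot be told apart.

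When unfolded protein gathers in the ER, the membrane sensors PERK (EIF2AK3), IRE1 (ERN1) and ATF6 signal to the nucleus. PERK, like the kinases that sense amino acid shortage, heme loss and double-stranded RNA, phosphorylates the translation factor eIF2alpha, which slows protein synthesis in general but favours translation of the transcription factor ATF4. ATF4 then drives genes of amino acid synthesis and import, while ATF6 and the spliced form of XBP1 drive ER chaperones and the degradation machinery. Much of this control acts on translation, splicing and protein cleavage, which gene-level counts do not show.

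Promoter stretches of HSPA5, CHAC1 and SLC1A4 are shown because they carry DNA elements through which ATF6 and ATF4 are known to act. Each runs 5′ to 3′ over the 250 bases before the RefSeq gene start and its first base (GRCh38.p14), with capitals marking a match to the ER stress response element (CCAAT and CCACG with 9 bases between them) in HSPA5 and to the ATF4 element TGATGNAA, here on the opposite strand, in CHAC1 and SLC1A4.
HSPA5, chr9:125241343-125241593, minus strand: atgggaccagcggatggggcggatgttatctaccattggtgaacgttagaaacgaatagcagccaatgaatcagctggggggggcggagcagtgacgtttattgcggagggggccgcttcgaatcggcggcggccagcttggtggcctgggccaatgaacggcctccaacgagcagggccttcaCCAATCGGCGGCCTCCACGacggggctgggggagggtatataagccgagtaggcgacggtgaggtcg
CHAC1, chr15:40953221-40953471, plus strand: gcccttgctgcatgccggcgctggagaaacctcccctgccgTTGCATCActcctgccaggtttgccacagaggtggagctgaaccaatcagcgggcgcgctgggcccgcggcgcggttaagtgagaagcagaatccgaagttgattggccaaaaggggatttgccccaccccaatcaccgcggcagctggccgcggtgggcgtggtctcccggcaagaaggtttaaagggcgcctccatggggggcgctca
SLC1A4, chr2:64989149-64989399, plus strand: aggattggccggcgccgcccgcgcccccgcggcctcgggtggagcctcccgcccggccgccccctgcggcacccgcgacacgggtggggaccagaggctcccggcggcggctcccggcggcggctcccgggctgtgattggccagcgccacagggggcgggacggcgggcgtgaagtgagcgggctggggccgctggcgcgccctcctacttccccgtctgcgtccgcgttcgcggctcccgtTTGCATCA

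Promoter windows of 250 bases before to 50 bases after the start were found for 32 of the 33 genes and searched on both strands. A single RefSeq start was used for each of these genes. For some, among them TRIB3, PDIA4, SLC3A2, CHAC1 and SLC1A4, it lay inside the gene's span in GENCODE 29. The counts of elements depend on that choice, and other starts were not searched. The ER stress response element was present in 4 of the 12 ER folding and degradation genes (HSPA5, HSP90B1, PDIA6 and CRELD2), in none of the 20 other stress genes with a window, and in 27 of all 35116 promoter windows (0.0769%). The element was defined on promoters of this kind, so the match describes the list and is not a result of these libraries. TGATGNAA was present in 5 of the 32 stress genes (15.6%: CHAC1, HERPUD1, SLC7A1, SLC1A4 and SLC1A5) and in 3.62% of all windows. The XBP1 and ATF6 element TGACGTG was present in 0 of the 32 windows and in 1.97% of all windows.

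Library totals ran from 20135270 to 22782742 gene counts, and values are CPM (a gene's reads relative to its library's total) scaled by the trimmed mean of M values. PARP1 had 33.6 and 28.6 CPM in the shEZH2 line, 28.7 and 26.6 CPM in the shSUZ12 line and 425 and 361 CPM in control. EZH2 had 53.1 and 63.5 CPM in shEZH2 libraries, against 188 to 199 CPM in control. SUZ12 had 76.1 and 70.3 CPM in shSUZ12 libraries, against 133 to 134 CPM in control, a difference that edgeR did not call (adjusted p = 0.377). In the shEZH2 line SUZ12 had 130 and 53.1 CPM, so that replicate 2 there was below both shSUZ12 libraries. Among markers of the cell line, VIM lay between 2940 and 5150 CPM in the 6 libraries, while ESR1 had 0 counts in all of them. Of 11 markers of leukocytes, endothelial cells and fibroblasts, none exceeded 15.1 CPM, and CD3E and CDH5 had 0 counts in every library. Of these markers, CD14, PECAM1 and LUM were called higher in the shEZH2 line and COL1A2 lower (edgeR adjusted p = 0.0353 to 0.0475). The summed level of the 11 was 20.6 and 27.6 CPM in the shEZH2 line, 21.1 and 24.9 CPM in the shSUZ12 line and 14.6 and 20.1 CPM in control. The part of these markers in the results was not tested. The shEZH2 libraries were less alike than those of the other groups: a more than 2-fold difference between the pair was seen at 11.0% of tested genes, on the log2(CPM + 0.5) scale, against 0.254% in the shSUZ12 line and 0.719% in control. The difference followed transcript length. Between short (1394 nt) and long (7556 nt) transcripts, the smoothed trend of replicate 2 favoured short ones by 1.08 on the log2 scale, whereas in the other 5 libraries the figure was -0.29 to -0.16.

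In control cells the 33 genes covered a wide range of levels. Per kilobase of transcript, the ER chaperone HSP90B1 (GRP94) was the most abundant at 340 CPM per kb, followed by HSPA5 (BiP), the main ER chaperone of the HSP70 family, at 203 CPM per kb, by ATF4 at 180 and by the leucine transporter gene SLC7A5 at 175 CPM per kb. SLC7A5 pairs with SLC3A2, its membrane anchor, which stood at 161 CPM per kb. The lowest were the sensors ERN1 and EIF2AK3, at 1.69 and 2.85 CPM per kb, and the neutral amino acid transporter SLC1A4 at 3.84 CPM per kb. Neighbours in this order were often close: SLC7A5 ranged from 650 to 934 CPM and SLC3A2 from 284 to 430 CPM between the control libraries, and this spread was wider than the gap between them per kilobase.

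By edgeR's quasi-likelihood test over all libraries, 0 of the 33 stress genes were called higher in either depleted line. In the shEZH2 line 2 of 33 fell, both of them amino acid transporters, and 31 did not pass the test, where 6.74% of all tested genes were called in either direction, 3.54% higher and 3.20% lower. The share of called stress genes therefore lay near that of all genes. In bulk RNA, fewer cells with a transcript and less of it per cell cannot be told apart. The log2 fold change against control was negative for 25 of 33, with a median of -0.22, beside -0.01 over all tested genes. The shEZH2 libraries lay both above both controls at 4 of the 33 (26.3% of all tested genes) and both below at 13 (28.1%). DESeq2 called 4 lower and 0 higher (13.9% of all tested genes in either direction). At an unadjusted p under 0.05 edgeR had 7 lower and 2 higher, a share near the 26.8% of all tested genes.

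**Figure D1:**
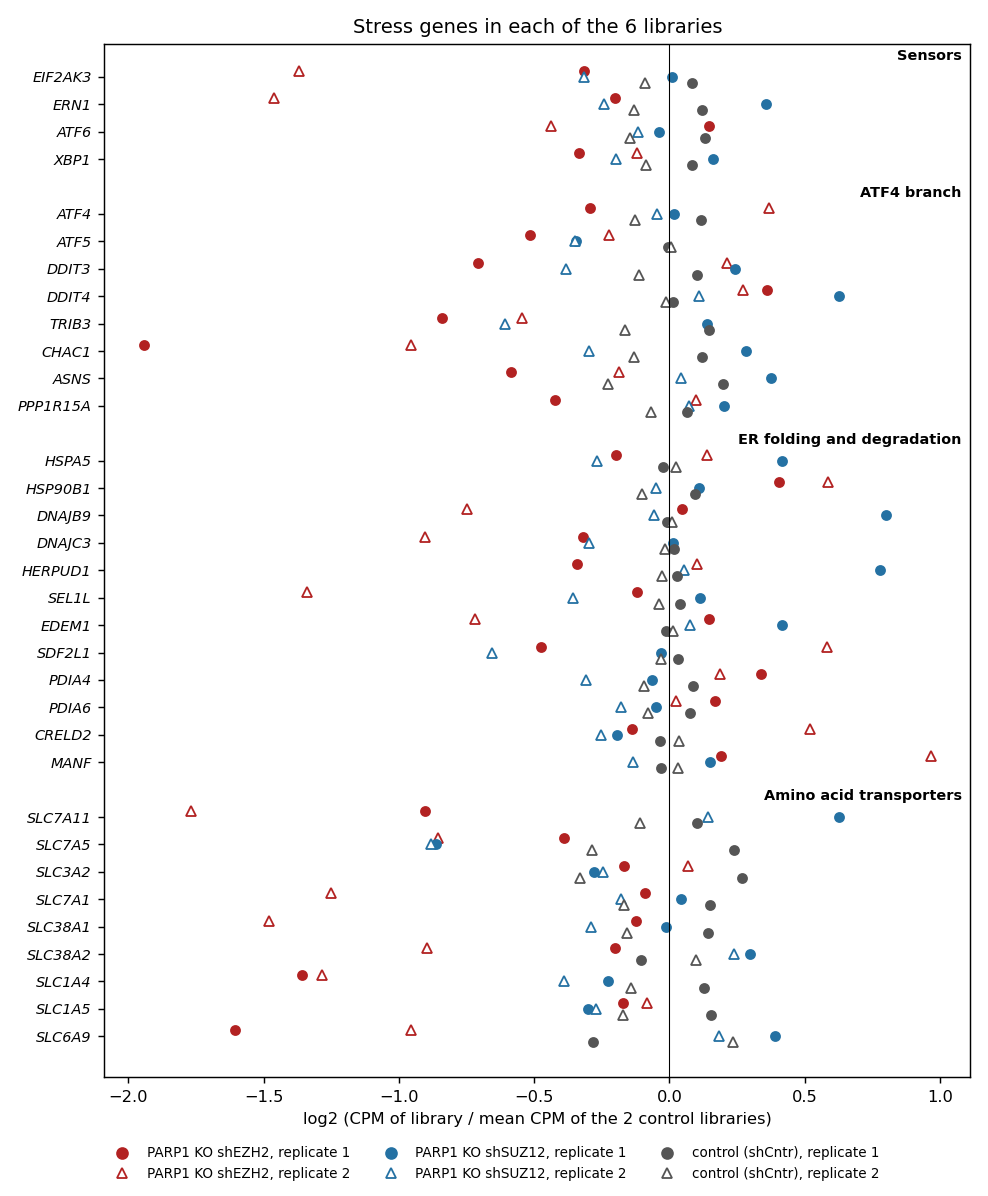
Level of the 33 stress genes in each library, as the log2 ratio of its CPM to the mean CPM of the 2 control libraries. Circles are replicate 1 and triangles replicate 2 of the shEZH2 line (red), the shSUZ12 line (blue) and control (grey). Both red symbols lie left of both grey symbols for SLC1A4, SLC6A9, SLC7A11 and CHAC1, while red symbols lie far apart for long transcripts such as SLC38A1 and SEL1L.

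The transporters held the clearest differences of the shEZH2 line. SLC1A4, which exchanges alanine, serine, cysteine and threonine (chromosome 2, 64988477 to 65023865, plus strand, GRCh38), had 6.85 and 7.21 CPM in the shEZH2 line, 15.0 and 13.4 CPM in the shSUZ12 line and 19.2 and 15.9 CPM in control. The shEZH2 libraries agreed closely here and did not overlap with any other library. Relative to control, SLC1A4 in the shEZH2 line fell by 1.32 ± 0.22 (log2, SE, n = 2 libraries a group; edgeR's quasi-likelihood test, Benjamini-Hochberg adjusted p = 0.0177). SLC6A9, the glycine transporter GlyT1 (chromosome 1, 43991500 to 44031467, minus strand), had 7.71 and 12.1 CPM in the shEZH2 line, 30.7 and 26.6 CPM in the shSUZ12 line and 19.3 and 27.6 CPM in control. Both shEZH2 libraries were the lowest of the 6, and those of the shSUZ12 line overlapped with control. SLC6A9 fell by 1.25 ± 0.29 in the shEZH2 line (edgeR adjusted p = 0.0458). Both calls were lost without either control library and without either shSUZ12 library. They were also lost in a fit on the 2 compared groups alone (edgeR adjusted p = 0.0704 and 0.118). The fold changes stayed negative, which the lack of overlap with control left little room to change.

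SLC7A11, the cystine-glutamate exchanger that feeds glutathione synthesis (chromosome 4, 138164097 to 138242349, minus strand), had 70.3 and 38.6 CPM in the shEZH2 line, 203 and 145 CPM in the shSUZ12 line and 141 and 122 CPM in control. The groups did not overlap: both shEZH2 libraries were below control and both shSUZ12 libraries above it. Its log2 fold change in the shEZH2 line was -1.27 ± 0.31 and stood just outside the threshold (edgeR adjusted p = 0.0526). The other transporters also had negative fold changes in the shEZH2 line, from -0.65 to -0.05, and none of them passed. For SLC7A1, the main carrier of cationic amino acids, values were 335 and 150 CPM in the shEZH2 line against 396 and 318 CPM in control, so that only replicate 2 lay apart. The glutamine transporter SLC38A1 showed the same pattern, with 535 and 209 CPM in the shEZH2 line, against 644 and 523 CPM in control. SLC1A5, the high-capacity glutamine carrier, had 400 and 425 CPM in the shEZH2 line, against 501 and 400 CPM in control, and its log2 fold change was -0.13 ± 0.18. The transporter median was -0.60, but -0.20 in shEZH2 replicate 1 and -0.93 in replicate 2 on the log2(CPM + 0.5) scale, which moved with transcript length (median 4561 nt for these genes, 3368 nt over all tested genes). With each library's length trend removed the transporter median was -0.39.

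**Figure D2:**
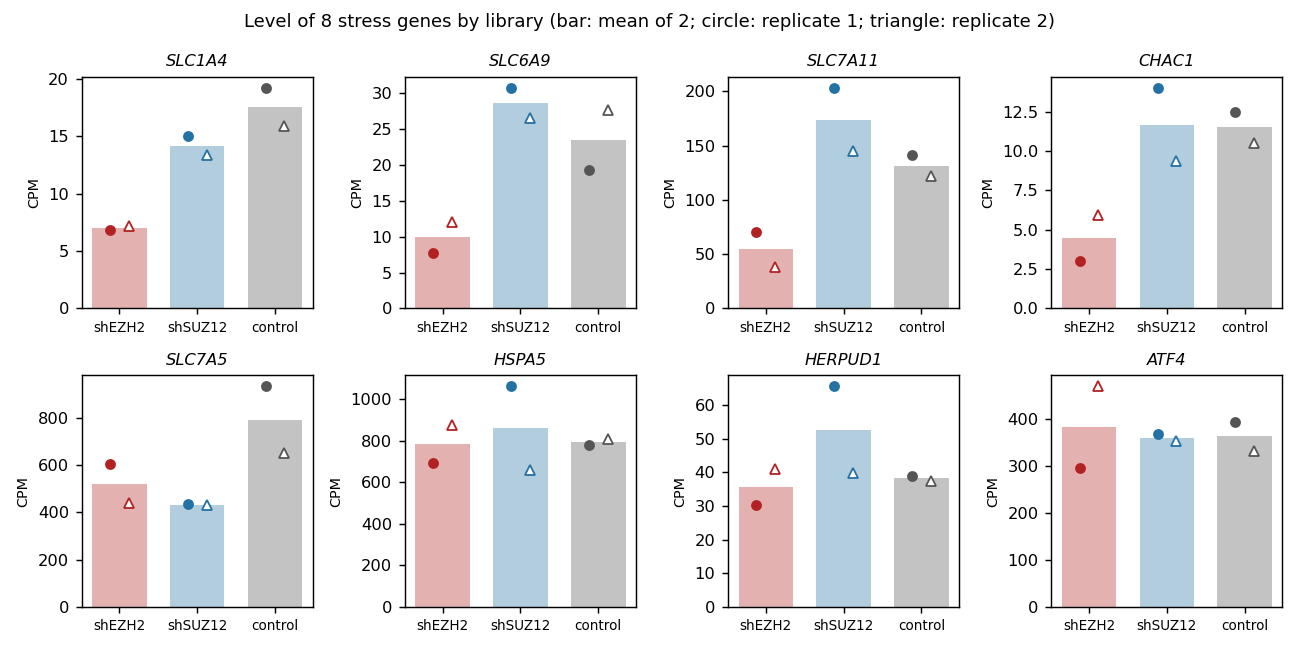
CPM of 8 stress genes in the shEZH2 line, the shSUZ12 line and control. Bars are means of 2 libraries, circles replicate 1 and triangles replicate 2. SLC1A4, SLC6A9, SLC7A11 and CHAC1 are lowest in both shEZH2 libraries, SLC7A5 is lowest in the shSUZ12 line and its control libraries differ (934 and 650 CPM), and HSPA5 and HERPUD1 differ between the shSUZ12 libraries.

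In the ATF4 branch the largest difference was that of CHAC1, a glutathione-degrading enzyme induced by ATF4 (chromosome 15, 40952962 to 40956519, plus strand). It had 2.99 and 5.93 CPM in the shEZH2 line, 14.0 and 9.35 CPM in the shSUZ12 line and 12.5 and 10.5 CPM in control. Both shEZH2 libraries were below the rest, with a log2(CPM + 0.5) difference of -0.88 between them (replicate 1 minus replicate 2). The log2 fold change in the shEZH2 line was -1.37 ± 0.37 (edgeR adjusted p = 0.0659). ATF4 itself had 297 and 470 CPM in the shEZH2 line, 368 and 353 CPM in the shSUZ12 line and 395 and 333 CPM in control, so that the shEZH2 libraries lay on either side of all others. Its log2 fold change was 0.07 ± 0.24 in the shEZH2 line and -0.02 ± 0.24 in the shSUZ12 line.

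DDIT3, the pro-apoptotic factor CHOP, had 26.9 and 51.0 CPM in the shEZH2 line, 52.0 and 33.7 CPM in the shSUZ12 line and 47.2 and 40.7 CPM in control, with both depleted lines spanning the control values (log2 fold changes of -0.17 ± 0.34 and -0.04 ± 0.34). TRIB3, a pseudokinase induced by ATF4 and CHOP, had 16.8 and 20.6 CPM in the shEZH2 line, 33.1 and 19.7 CPM in the shSUZ12 line and 33.3 and 26.8 CPM in control. The shEZH2 libraries did not overlap with control, at a log2 fold change of -0.68 ± 0.29 (edgeR adjusted p = 0.178). ASNS, asparagine synthetase, had 62.2 and 82.1 CPM in the shEZH2 line, 121 and 96.1 CPM in the shSUZ12 line and 107 and 79.7 CPM in control, with a log2 fold change of -0.37 ± 0.24 in the shEZH2 line (edgeR adjusted p = 0.350). Of the others, ATF5, a stress-induced relative of ATF4, had log2 fold changes of -0.36 in the shEZH2 line and -0.34 in the shSUZ12 line, and the mTORC1 inhibitor DDIT4 of 0.32 and 0.39, each without overlap with control. PPP1R15A (GADD34), which reverses eIF2alpha phosphorylation, had -0.14 and 0.14. In all, 6 of 8 ATF4 branch genes were below control in the shEZH2 line (median -0.27) and 4 of 8 in the shSUZ12 line (median 0.00). The shEZH2 median was -0.05 without shEZH2 replicate 1, -0.52 without replicate 2, -0.08 without control replicate 1 and -0.52 with length trends removed.

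Of the sensors, EIF2AK3 had 10.6 and 5.11 CPM in the shEZH2 line, 13.3 and 10.6 CPM in the shSUZ12 line and 14.0 and 12.4 CPM in control. ERN1 had 11.6 and 4.85 CPM in the shEZH2 line, 17.1 and 11.3 CPM in the shSUZ12 line and 14.5 and 12.2 CPM in control. For both genes it was shEZH2 replicate 2 that lay apart, and both transcripts are long (4646 and 7876 nt). The log2 fold changes of EIF2AK3 and ERN1 in the shEZH2 line, -0.75 ± 0.34 and -0.69 ± 0.41, did not pass (edgeR adjusted p = 0.209 and 0.317). With length trends removed they were -0.60 and -0.41, neither of them called. The median of the 4 sensors and transducers was -0.46 in the shEZH2 line and -0.42 with length trends removed. It was -0.91 without shEZH2 replicate 1 and -0.23 without replicate 2. XBP1, whose mRNA is spliced by IRE1, had 51.7 and 60.0 CPM in the shEZH2 line, 72.9 and 56.8 CPM in the shSUZ12 line and 69.0 and 61.4 CPM in control, with a log2 fold change of -0.22 ± 0.20 in the shEZH2 line (edgeR adjusted p = 0.511). ATF6 had 118 and 78.9 CPM in the shEZH2 line, 104 and 98.5 CPM in the shSUZ12 line and 117 and 96.5 CPM in control. The counts do not separate spliced from unspliced XBP1.

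ER folding and degradation genes did not move together in the shEZH2 line: 6 of 12 were above and 6 below control, with a median of 0.04 (-0.02 with length trends removed). HSPA5 had 692 and 874 CPM in the shEZH2 line, 1060 and 659 CPM in the shSUZ12 line and 780 and 807 CPM in control. The control libraries were the closest pair, and each depleted line had a library on either side of them (log2 fold changes of -0.02 ± 0.25 in the shEZH2 line and 0.12 ± 0.25 in the shSUZ12 line). MANF, a secreted factor that protects cells under ER stress, had 86.4 and 148 CPM in the shEZH2 line, 83.9 and 68.9 CPM in the shSUZ12 line and 74.0 and 77.4 CPM in control. SEL1L, the adaptor of the HRD1 ubiquitin ligase that clears misfolded ER proteins, had 120 and 51.6 CPM in the shEZH2 line, 141 and 102 CPM in the shSUZ12 line and 134 and 127 CPM in control. These genes lie near opposite ends of the length range (1153 and 7925 nt), and in both it was shEZH2 replicate 2 that lay far from control. Their log2 fold changes in the shEZH2 line, 0.63 ± 0.27 for MANF and -0.61 ± 0.37 for SEL1L, did not pass (edgeR adjusted p = 0.184 and 0.331). DNAJC3, an ER co-chaperone also known as a PERK inhibitor, had 66.3 and 44.3 CPM in the shEZH2 line, 83.6 and 67.3 CPM in the shSUZ12 line and 83.8 and 81.8 CPM in control. Both shEZH2 libraries were the lowest of the 6, at a log2 fold change of -0.58 ± 0.24 (edgeR adjusted p = 0.168). HSP90B1 had 1290 and 1460 CPM in the shEZH2 line, 1050 and 940 CPM in the shSUZ12 line and 1040 and 906 CPM in control. Both shEZH2 libraries were above all others, at a log2 fold change of 0.50 ± 0.18 that did not pass (edgeR adjusted p = 0.128).

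**Figure D3:**
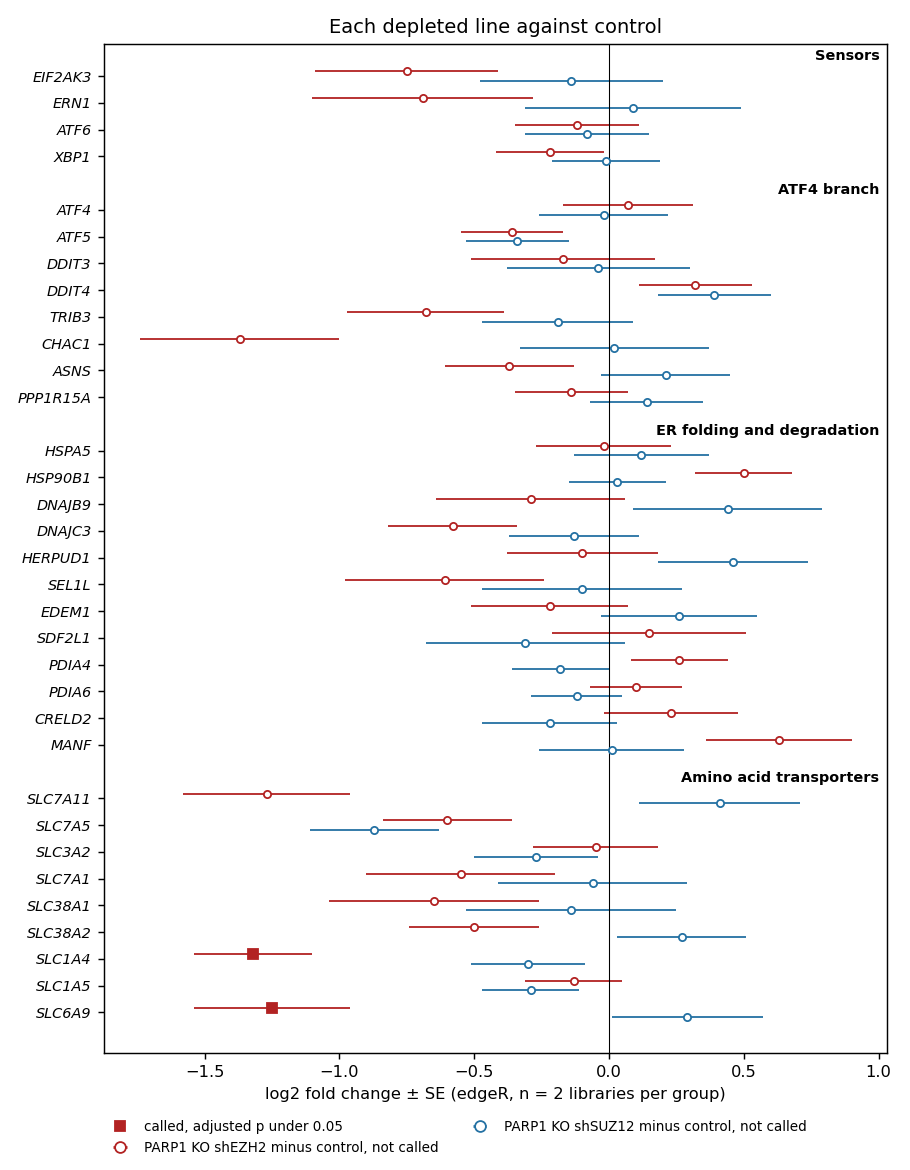
Log2 fold change of each stress gene against control with its SE, for the shEZH2 line (red) and the shSUZ12 line (blue), from edgeR with 2 libraries per group. Filled squares mark adjusted p under 0.05. SLC1A4 and SLC6A9 in the shEZH2 line are the called values, and the blue values run from -0.87 (SLC7A5) to 0.46 (HERPUD1).

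The spread between the shEZH2 libraries entered every one of these tests. Across the 33 genes the log2 difference of replicate 2 minus replicate 1 had a Pearson r of -0.87 and a Spearman rho of -0.83 with log2 transcript length, against r = -0.58 over the 13387 tested genes with a length. The points share the same pair of libraries, so this is a description of those libraries. Of 13 stress genes longer than the median tested gene 11 were higher in replicate 1, and of 20 shorter ones 16 were lower there. Resting the shEZH2 line on replicate 1 alone, 8 stress genes were called, 2 higher and 6 lower; on replicate 2 alone, 19 were called, 5 higher and 14 lower. Of all tested genes 28.3% were called on replicate 1 alone and 54.8% on replicate 2 alone, so both counts lay near the background. On replicate 1 and on replicate 2 alone, the log2 fold changes were -1.32 and -1.28 for SLC1A4, -1.57 and -0.96 for SLC6A9 and -0.87 and -1.77 for SLC7A11. They were -1.91 and -0.96 for CHAC1 and 0.44 and 0.58 for HSP90B1. These 5 genes were picked for their agreement between the libraries. Other stress genes also kept their sign, and the share of all tested genes that agreed in this way is not given here. The fit with length trends removed, which called 16.2% of all tested genes, called those 5 and ATF5, with log2 fold changes of -0.92 for SLC7A11, -1.62 for CHAC1, 0.46 for HSP90B1 and -0.54 for ATF5 (edgeR adjusted p = 0.0100, 0.00922, 0.0453 and 0.0358). When a group rests on 1 library, that library is assumed to vary like the other groups.

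In the shSUZ12 line 0 of 33 stress genes were called by edgeR's quasi-likelihood test, where 1.61% of all tested genes were called, 0.719% higher and 0.888% lower. At an unadjusted p under 0.05 there was 1, SLC7A5, where 13.1% of all tested genes were under it. DESeq2 called SLC7A5 lower, and 3.71% of all tested genes in either direction. Of the 33, 14 were above and 19 below control, with a median of -0.04, beside 0.00 over all tested genes. The shSUZ12 libraries lay both above both controls at 6 of the 33 (30.3% of all tested genes) and both below at 6 (30.9%). SLC7A5, the leucine transporter LAT1 (chromosome 16, 87830023 to 87869488, minus strand), had 605 and 438 CPM in the shEZH2 line, 435 and 430 CPM in the shSUZ12 line and 934 and 650 CPM in control. All 4 depleted libraries were below both controls, which differed more from each other than the shSUZ12 libraries did. Its log2 fold change was -0.60 ± 0.24 in the shEZH2 line (edgeR adjusted p = 0.158) and -0.87 ± 0.24 in the shSUZ12 line (edgeR adjusted p = 0.163). DESeq2 gave adjusted p = 0.041 for the shSUZ12 line, and edgeR gave 0.0327 with length trends removed and 0.00186 in the fit on the compared groups. Over all genes, the fit with length trends removed called 661 and that on the compared groups 2876, against 228 in the main fit. The fit on the compared groups also called ATF5 lower (edgeR adjusted p = 0.0365). The shEZH2 libraries enter this comparison only through the shared spread and the scaling. The SLC7A5 log2 fold change of -0.87 without either of them is therefore no check of it. Without control replicate 1 or 2 the log2 fold change was -0.57 and -1.11 (adjusted p = 1 and 0.292), and without shSUZ12 replicate 1 or 2 the adjusted p was 0.771 and 0.883. Its partner SLC3A2 had 318 and 374 CPM in the shEZH2 line, 294 and 301 CPM in the shSUZ12 line and 430 and 284 CPM in control, and all 4 depleted libraries lay between the controls.

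The shSUZ12 libraries differed from each other at the stress genes in one direction. Of the 33, 31 were higher in replicate 1 (median log2 difference 0.28), and 9 were higher there by over 0.5 on the log2(CPM + 0.5) scale against 0 in replicate 2. Among the 11857 tested genes of at least 2 CPM on average, 47.9% were higher in replicate 1, and 1.26% and 1.11% passed that difference in replicate 1 and in replicate 2. All 12 ER genes and all 4 sensors were higher in replicate 1, whereas SLC3A2 and SLC1A5 were not. DNAJB9, an ER co-chaperone that restrains IRE1, had 15.7 and 9.05 CPM in the shEZH2 line, 26.5 and 14.6 CPM in the shSUZ12 line and 15.1 and 15.3 CPM in control. Its log2 fold change in the shSUZ12 line was 0.44 ± 0.35 (edgeR adjusted p = 0.723). HERPUD1, a component of ER-associated degradation, had 65.6 and 39.7 CPM in the shSUZ12 line and 39.0 and 37.5 CPM in control. For both genes replicate 2 lay near control and replicate 1 well above it. In the ATF4 branch the median against control was 0.22 in shSUZ12 replicate 1 and -0.17 in replicate 2, and among ER genes 0.11 and -0.21. The direction of these medians in the shSUZ12 line therefore depended on the library. The control libraries also differed in one direction, with 25 of 33 higher in replicate 1 and a median log2 difference of 0.17. Among the tested genes of at least 2 CPM, 53% were higher in control replicate 1, with a median of 0.01.

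**Figure D4:**
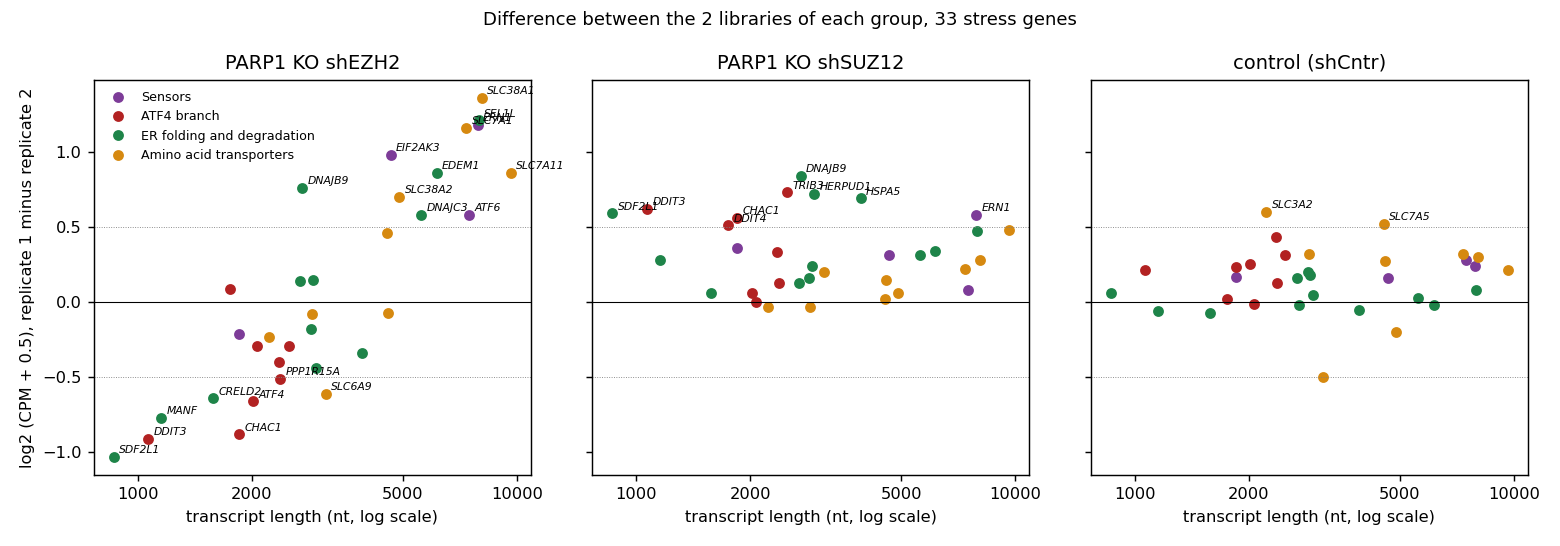
Difference between the 2 libraries of each group (replicate 1 minus replicate 2, log2(CPM + 0.5)) against transcript length on a log axis, for the 33 stress genes coloured by role. Dotted lines mark a difference of 0.5. In the shEZH2 line the difference climbs with length, in the shSUZ12 line 31 of 33 points lie above 0 at all lengths, and in control 25 lie above it.

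Set directly against each other, the lines differed at 0 of 33 stress genes by edgeR's quasi-likelihood test, where 1.52% of all tested genes were called, 0.726% higher and 0.796% lower in the shSUZ12 line. Both shSUZ12 libraries were above both shEZH2 libraries at 8 of the 33 (28.1% of all tested genes) and below them at 8 (26.5%). At an unadjusted p under 0.05 6 were higher in the shSUZ12 line and 2 lower, a share near the 23.9% of all tested genes. DESeq2 called 4 higher and 0 lower, and 9.56% of the genes to which it gave an adjusted p. Those 4 were SLC7A11, SLC6A9, SLC1A4 and CHAC1, whose log2 differences (shSUZ12 minus shEZH2) were 1.67 ± 0.31, 1.53 ± 0.29, 1.02 ± 0.22 and 1.39 ± 0.37, with edgeR adjusted p of 0.0509, 0.0516, 0.0608 and 0.0915. For each of the 4 both shSUZ12 libraries lay above both shEZH2 libraries. With length trends removed the edgeR adjusted p were 0.00844, 0.0145, 0.0489 and 0.0170, in a fit that called 6 of the 33 and 8.88% of all tested genes. Both lines were compared with the same 2 control libraries, so their fold changes against control are not independent.

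Neighbouring parts of the response were described with 9 lists of other genes. Of their 128 tested genes edgeR called 16 in the shEZH2 line, 11 higher and 5 lower. Of all tested genes it called 6.74%, 3.54% higher and 3.20% lower. DESeq2 called 22 of the 128 (13.9% of all tested genes), and 36 had an unadjusted edgeR p under 0.05 (26.8%). Among 10 other components of eIF2alpha signalling, 2 rose in the shEZH2 line and 8 did not pass (median 0.17). EIF2B1 and EIF2B2 encode subunits of eIF2B, the exchange factor that phosphorylated eIF2alpha blocks. EIF2B1 had 184 and 199 CPM in the shEZH2 line, against 89.5 to 90.2 CPM in control, and rose by 1.09 (edgeR adjusted p = 0.0151). EIF2B2 rose by 1.14 (edgeR adjusted p = 0.0257), with 176 and 246 CPM in the shEZH2 line, against 102 and 89.1 CPM in control. Of 20 cytosolic aminoacyl-tRNA synthetases, which charge tRNAs with amino acids, 4 rose, 0 fell and 16 did not pass (median 0.17). FARSA, RARS and HARS, for phenylalanine, arginine and histidine, rose by 1.17, 1.01 and 0.83 (edgeR adjusted p = 0.0139, 0.0226 and 0.0327). For these 5 genes both shEZH2 libraries lay above both controls, as at 26.3% of all tested genes. Leaving out an shEZH2 library could therefore not change the sign. All 5 calls were lost without either control library, without either shSUZ12 library and in the fit on the compared groups.

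Of 17 tested genes among the other ATF4 targets, 1 rose and 1 fell in the shEZH2 line (median -0.31). GDF15, a stress-induced cytokine, had 19.1 and 27.7 CPM in the shEZH2 line, 13.0 and 9.49 CPM in the shSUZ12 line and 7.66 and 6.70 CPM in control, and rose by 1.71 (edgeR adjusted p = 0.0176). VEGFA, the main angiogenic growth factor, fell by 1.70 there. Among other ER chaperones and oxidoreductases 1 of 16 rose and 1 fell: PPIB, a prolyl isomerase, rose by 1.04 and FKBP14, another, fell by 1.20. Among other degradation and translocation genes 1 of 20 rose and 1 fell: of the translocon-associated proteins, SSR2 rose by 1.11 and SSR3 fell by 0.97. Of 8 genes that process ATF6 or encode related factors, CREB3L3, a liver-type relative of ATF6, had 5.11 and 5.67 CPM in the shEZH2 line against 0.315 and 0.333 CPM in control and rose by 4.03, and CREB3L1 fell by 1.12. Of 16 other amino acid transporters (median -0.10, 8 above and 8 below control), the glutamate transporter SLC1A3 rose by 1.21 and SLC36A4 fell by 1.36. From VEGFA to SLC36A4, edgeR's adjusted p for these 9 genes ran from 0.00373 to 0.0419. Their calls and that of GDF15 were lost without either control library (adjusted p = 0.0771 to 0.331), and that of SLC1A3 also with total counts as library size (0.0510). Except for VEGFA, CREB3L3 and GDF15, they were also lost without either shSUZ12 library and in the fit on the compared groups (0.0858 to 0.117). Of 10 NRF2 target genes 0 were called by edgeR in the shEZH2 line and 0 by DESeq2, with 1 at an unadjusted p under 0.05 (median -0.12). Of 11 heat shock genes, which include those of the mitochondrial chaperonin, HSPD1 and HSPE1, 0 were called by edgeR and 2 by DESeq2, with 2 at an unadjusted p under 0.05 (median 0.06). In the shSUZ12 line 0 of the 128 tested genes of these 9 lists were called by edgeR against control (1.61% of all tested genes). There 12 of the 128 were at an unadjusted p under 0.05 (13.1% of all tested genes) and 1 was called by DESeq2 (3.71%).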

How the data were processed

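RNA of MDA-MB-231 cells was sequenced in 6 libraries, 2 per group, with groups taken from the sample titles. Raw read counts, as the authors deposited them, gave 1 whole number for each gene symbol in each library. GRCh38, GenomeStudio 2010.1, STAR and R 3.2.5 are listed, without roles, per the submitters' processing notes. A stranded mRNA library kit was used, per the labels' protocols. Which annotation served for counting, and whether strand was used, is not given in the sources used here; a gene and its antisense partner may share reads. Entries that name no gene (4) held 16.5 to 21.0% of counts per library and were left out. Between 7.21 and 10.4% of counts were multimapping, and a gene with a near-identical copy, such as HSP90B1 with its pseudogene, is less certain. The floor of 3 counts, for counting error only, equals 0.134 to 0.153 CPM.

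Tests used R 4.3.3 and edgeR 4.0.16 (quasi-likelihood, robust, TMM scaling, filterByExpr) in a single fit of all 3 groups with 3 residual degrees of freedom. A call required an adjusted p (Benjamini-Hochberg, over 14192 tested genes) under 0.05. SE came from the fold change and its F statistic. Alternatives were DESeq2 1.42.0, other scalings, no filter, a replicate block, a fit on the compared groups, removal of each library's trend with transcript length (longest GENCODE 29 transcript, 94.3% of tested genes) and leaving out each library. The procedure was also run on simulated counts. These had the same spread for a gene in all groups and no length trend, so that run does not speak to the uneven shEZH2 libraries. The labels do not state separate cultures, so the spread behind each p-value may be technical. The smallest p of an exact permutation test of 2 against 2 libraries is 0.333.

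The stress genes and the other gene lists were chosen with earlier results of these data known. Called stress genes, ATF4, XBP1, DDIT3 and HSPA5 were described, as were, in each role, those with the largest fold change in any of the 3 comparisons until 3 were given; HSP90B1, HERPUD1, DNAJC3 and some transporters were added after their values were seen. Of other lists at most 3 rises and 3 falls were named among called genes. Gene positions are those of GENCODE 29, and promoter sequences are from RefSeq (GRCh38.p14).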

Additional observations from a re-analysis of the deposited data

Results flagged for a closer look

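SLC7A11 and SLC38A2 drew attention because their libraries moved in opposite directions in the depleted lines: both shEZH2 libraries were below, and both shSUZ12 libraries above, both controls. Of all tested genes 28.1% had both shEZH2 libraries below both controls, and 30.3% had both shSUZ12 libraries above them. The share with both patterns is not given here. For SLC7A11 the log2 difference of the shSUZ12 minus the shEZH2 line was 1.67 ± 0.31 (edgeR adjusted p = 0.0509 with Benjamini-Hochberg adjustment, n = 2 per group). SLC38A2, a carrier of small neutral amino acids that is induced by amino acid shortage, had 451 and 432 CPM in the shSUZ12 line and 319 and 197 CPM in the shEZH2 line, beside 341 and 392 CPM in control. Its log2 difference was 0.77 ± 0.24 (edgeR adjusted p = 0.125). Neither difference passed that test. Both passed with length trends removed (adjusted p = 0.00844 for SLC7A11 and 0.0454 for SLC38A2) and without shEZH2 replicate 1 or 2. For SLC38A2 the adjusted p was 3.61e-07 and 0.0176 in those last fits. SLC7A11 also passed by DESeq2, with DESeq2 size factors in edgeR, with no filter and with the replicate block, and SLC38A2 did not. Without either control or either shSUZ12 library neither passed. Nor did either pass in the fit on the compared groups (edgeR adjusted p = 0.16 for SLC7A11 and 0.256 for SLC38A2).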

How the results depend on the processing

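SLC1A4 and SLC6A9 stayed lower in the shEZH2 line than in control under all 13 alternatives, with log2 fold changes from -1.45 to -1.12 and from -1.57 to -0.96, and passed the threshold in 8 of them. Both shEZH2 libraries lay below both controls for these 2 genes, so leaving out a library could not change the sign. The kept sign is therefore no separate support. The following counts are given for the shEZH2 line against control, the shSUZ12 line against control and the shSUZ12 against the shEZH2 line, in that order. The 957, 228 and 216 calls over all genes became 1976, 527 and 1304 by DESeq2, 1471, 399 and 718 with no filter, 216, 2876 and 1 with only the compared groups, and 2303, 661 and 1260 with length trends removed. The 2, 0 and 0 calls of stress genes became 4, 1 and 4 by DESeq2, 4, 0 and 4 with no filter, 0, 2 and 0 with only the compared groups, and 6, 1 and 6 with length trends removed. DESeq2 size factors in edgeR gave 2, 0 and 1, and total counts as library size gave 2, 0 and 0. Leaving out each library gave 5 to 7775, 9 to 2929 and 0 to 7537 calls over all genes and 0 to 19, 0 to 2 and 0 to 20 of stress genes. The high values came without an shEZH2 library, the low ones without a control or shSUZ12 library. Other scalings moved the median of all genes by up to 0.09 on the log2 scale.

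The labels do not say that a replicate number marks a shared culture or day. Deviations of same-numbered libraries from the group means correlated at 0.116 (shEZH2 and control), 0.0855 (shSUZ12 and control) and 0.207 (shSUZ12 and shEZH2), and since 1 of these is under 0.1 the libraries were not treated as paired. With the replicate number as a block, calls over all genes were 1233, 328 and 368, and those of stress genes 3, 0 and 2. SLC7A11 was then called in the shEZH2 line, and SLC7A11 and SLC6A9 between the lines. The lowest value of any stress gene, 2.99 CPM for CHAC1 in the shEZH2 line, lay above the floor of 3 counts. That floor covers counting error only, and the part of depth in the calls was not tested.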

Other observations

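Between the depleted lines, 5 of the 128 tested genes of the other stress lists differed by edgeR (quasi-likelihood, Benjamini-Hochberg adjusted), 1 higher and 4 lower in the shSUZ12 line. Of all tested genes 1.52% differed, 0.726% higher and 0.796% lower. EIF2B1 had 96.2 and 107 CPM in the shSUZ12 line and 184 and 199 CPM in the shEZH2 line, a log2 difference of -0.92 ± 0.17 (adjusted p = 0.0488). The phenylalanyl-tRNA synthetase gene FARSA had 156 and 182 CPM in the shSUZ12 line and 336 and 348 CPM in the shEZH2 line, a difference of -1.02 ± 0.17 (adjusted p = 0.0419). SSR2, which sits at the ER translocon, had 235 and 237 CPM in the shSUZ12 line and 454 and 646 CPM in the shEZH2 line (-1.22 ± 0.21, adjusted p = 0.0429). CREB3L3 was lower by a log2 difference of -3.60 ± 0.35, and VEGFA was higher by 2.19 ± 0.16. For all 5, which were picked as called here, the libraries of the lines did not overlap. Of all tested genes 28.1% lay higher without overlap in the shSUZ12 line and 26.5% lower. The calls of all 5 were lost without either control or either shSUZ12 library (adjusted p = 0.0601 to 0.538) and in the fit on the compared groups (0.0615 to 0.160), and those of EIF2B1, FARSA and SSR2 also with total counts as library size (adjusted p = 0.0641, 0.0545 and 0.0510).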
